A study of Mus musculus with 18 samples.

Results

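The genes described are 10 members of the mammalian circadian clock, namely Arntl (also written Bmal1), Clock, Npas2, Per1, Per2, Per3, Cry1, Nr1d1, Nr1d2 and Dbp. They were taken by name from the 55416 genes quantified in 18 RNA sequencing libraries of mouse optic nerve head, and all 10 were among the 15118 genes with enough reads to be tested. The optic nerve head is the site at which ganglion cell axons gather and pass out of the eye, and it was cut from sections by laser capture microdissection. Of the libraries, 3 were labelled B6.EDA+/+ at 22 months, 5 C57BL/6J control at 22 months, 5 B6.EDA+/+ at 12 months and 5 C57BL/6J control at 12 months. As background, B6.EDA+/+ mice carry a germline fibronectin allele in every cell, made so that the extra domain A (EDA) exon is always included, on the C57BL/6 background, and no treatment is given for any group. The labels do not give the hour at which tissue was taken, the lighting schedule or the sex, and they do not say that each library came from its own animal. The p-values below therefore measure the spread between libraries, which may be technical in part, and the hour of collection and the group cannot be told apart.

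The clock is a feedback loop that runs in most cells of the body. The proteins of Arntl and of Clock, or of Npas2 in place of Clock, pair up and switch on genes through E-box sequences. Among those genes are the Per and Cry repressors, which block the pair, Nr1d1 and Nr1d2 (REV-ERB alpha and beta), which repress Arntl, and Dbp, an output transcription factor that binds D-box sequences. In mouse tissues that hold a rhythm, Arntl RNA therefore peaks in about the opposite phase to Nr1d1, Dbp and the Per genes, so a shift in hour moves these groups in opposite directions. Per1 is also known to respond quickly to light, cyclic AMP and corticosteroids.

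Promoter windows that hold a match to a clock motif are shown for 5 members, as examples of where such matches lie. RefSeq promoter windows, reaching from 250 bases before to 50 bases after an annotated start, were found for 9 of the 10 members, all but Per2, with 13 windows in all, and each is given on the coding strand of the gene in build GRCm38.p6. Capitals mark matches to the motifs searched on both strands: the E-box CACGTG, its variant CACGTT, the D-box TTATGTAA with its other form TTACGTAA, the REV-ERB and ROR core AGGTCA, and the cyclic AMP element TGACGTCA. No match in these windows overlapped another.
Nr1d1 (chr11:98775328-98775627, minus strand): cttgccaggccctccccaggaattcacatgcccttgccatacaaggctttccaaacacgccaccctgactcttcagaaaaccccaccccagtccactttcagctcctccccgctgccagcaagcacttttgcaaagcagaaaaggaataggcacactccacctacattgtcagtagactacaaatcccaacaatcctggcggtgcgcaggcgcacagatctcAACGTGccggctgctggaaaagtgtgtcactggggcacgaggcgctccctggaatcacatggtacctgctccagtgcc
Per1 (chr11:69098699-69098998, plus strand): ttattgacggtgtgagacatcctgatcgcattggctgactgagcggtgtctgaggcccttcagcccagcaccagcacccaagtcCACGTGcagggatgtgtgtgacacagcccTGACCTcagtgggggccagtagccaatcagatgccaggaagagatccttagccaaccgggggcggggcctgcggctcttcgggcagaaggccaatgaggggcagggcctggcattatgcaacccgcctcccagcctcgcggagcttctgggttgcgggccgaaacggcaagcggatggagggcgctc
Per3 (chr4:151044616-151044915, minus strand): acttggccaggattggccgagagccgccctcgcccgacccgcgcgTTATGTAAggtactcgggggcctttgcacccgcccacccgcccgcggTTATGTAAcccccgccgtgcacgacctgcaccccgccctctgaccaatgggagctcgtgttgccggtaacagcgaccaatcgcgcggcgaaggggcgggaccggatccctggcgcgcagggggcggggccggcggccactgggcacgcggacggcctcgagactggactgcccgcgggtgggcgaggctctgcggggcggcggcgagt
Cry1 (chr10:85185005-85185304, minus strand): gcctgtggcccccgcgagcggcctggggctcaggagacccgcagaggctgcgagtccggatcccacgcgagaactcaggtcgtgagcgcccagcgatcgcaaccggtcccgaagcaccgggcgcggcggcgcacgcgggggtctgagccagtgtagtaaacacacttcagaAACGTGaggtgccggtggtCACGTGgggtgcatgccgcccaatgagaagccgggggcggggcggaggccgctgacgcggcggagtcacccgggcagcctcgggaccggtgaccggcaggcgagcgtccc
Arntl (chr7:113207261-113207560, plus strand): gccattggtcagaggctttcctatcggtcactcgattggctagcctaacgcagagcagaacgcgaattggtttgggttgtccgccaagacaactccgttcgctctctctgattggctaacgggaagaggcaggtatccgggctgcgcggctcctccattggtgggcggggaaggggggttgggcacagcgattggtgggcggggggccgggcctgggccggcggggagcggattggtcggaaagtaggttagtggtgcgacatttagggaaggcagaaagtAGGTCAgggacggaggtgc

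The Per1 window held an E-box that begins 166 bases before the start and, on the other strand, an AGGTCA match 137 bases before it. The Cry1 window held an E-box at 60 bases and a variant E-box, on the other strand, at 79 bases before the start. In Per3 the D-box TTATGTAA occurred at 205 and at 158 bases before the start, while the Nr1d1 window held a variant E-box, on the other strand, at 28 bases. In Arntl the AGGTCA core began 32 bases downstream, counting the start as base 1. Matches were not general among the members: 6 of the 13 windows held none (those of Npas2 and Dbp, a second window each of Per1 and Arntl, and 2 of 3 for Clock), and 2 held CACGTG. The third Clock window and that of Nr1d2 held AGGTCA. Of 32544 mouse windows of the same 300 bases, 7.17% held CACGTG, 4.71% CACGTT, 0.931% TTATGTAA, 0.120% TTACGTAA, 16.2% AGGTCA and 1.80% TGACGTCA. These are matches of letters and do not show binding.

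Before the clock genes themselves, the libraries were checked. Totals ran from 13097498 to 18488733 expected counts, and 9703 to 13048 genes had at least 10 reads, the fewest in EDA-labelled 22-month library 3. A single gene, ENSMUSG00000119584, took 3.26% to 32.8% of a library's reads. The share of fibronectin transcripts with the EDA exon did not follow the labels: it ran from 0 to 58.5% (median 4.11%) in the 8 EDA-labelled libraries and from 0 to 100% (median 4.45%) in the 10 control-labelled libraries, and 4 of the 8 and 5 of the 10 were listed at 0. These shares are estimated splits of reads among isoforms, on 66.9 to 1485 expected counts per library, and they do not settle the genotype. The groups are therefore called EDA-labelled and control-labelled throughout. The astrocyte marker Gfap was present in all 18 libraries at 2577 to 17692 TPM, and at least 4 of 5 astrocyte markers were detected in each. Photoreceptor markers summed to 4452 TPM in control-labelled 22-month library 2 and to 161 TPM or less in the others, skeletal muscle markers reached 270 TPM in EDA-labelled 22-month library 1, and Xist stood above the Y-linked genes in 5 libraries, 3 of them EDA-labelled and none of them control-labelled at 22 months.

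The clock loop of this tissue was dominated by Nr1d1. In TPM (transcript abundance corrected for transcript length and library total, so that genes can be set side by side), its median over the 18 libraries was 1350 TPM with a range of 442 to 1860, rank 58 of all genes. In every library it stood above every other member, since the highest level of another member in any library was 105.9 TPM, for Per1. Its paralog Nr1d2 had a median of 65.0 TPM (4.53 to 97.7), and within a library Nr1d1 was 11.4 to 154 times Nr1d2, with a median ratio of 20.0.

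Below the REV-ERB pair stood the Per repressor Per1, with a median of 33.4 TPM (2.79 to 105.9). The output factor Dbp (12.5 TPM, 5.67 to 20.9), the activator Clock (11.9 TPM, 0.840 to 26.7) and Per3 (10.3 TPM, 4.42 to 16.2) followed at like medians. The lowest medians belonged to Per2 (3.27 TPM, 0.0300 to 11.8), Arntl (2.27 TPM, 0 to 10.1), the repressor Cry1 (1.84 TPM, 0.500 to 6.20) and Npas2, the partner that can replace Clock (1.71 TPM, 0 to 8.09). Below Nr1d1, the ranges of neighbours in this order overlapped in each case. Overlap across libraries does not give the order of genes within a library, which was not examined for these neighbours. Of genes farther apart in the order, Clock was 1.12 to 20.9 times Cry1 within a library, and Per1 was 0.631 to 9.86 times Per3. In bulk tissue, fewer cells of a type and less RNA per cell cannot be told apart.

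**Figure D1:**
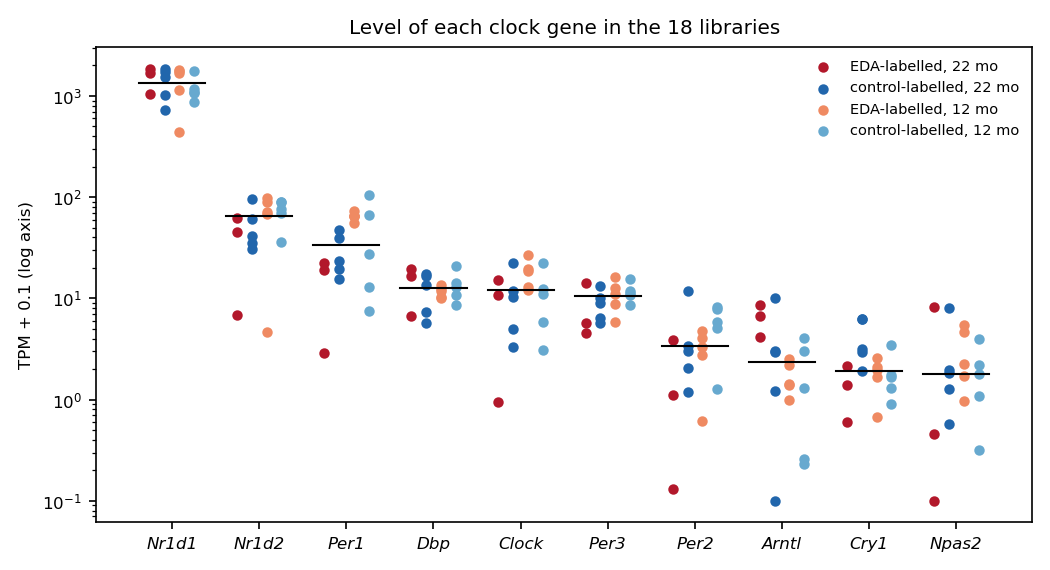
Level of each of the 10 clock genes in TPM (plus 0.1, log axis), with a point for each of the 18 libraries, colours for the 4 groups and a black line at the median over all libraries. Nr1d1 lies between 442 and 1860 TPM, above every point of the other 9 genes, and the lowest medians are those of Per2, Arntl, Cry1 and Npas2.

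Nr1d1 shares its chromosome 11 locus with Thra, the thyroid hormone receptor alpha gene, whose 3' end overlaps it on the opposite strand. The library kit keeps no strand information, so reads from the overlap of the pair cannot be told apart. The level of Nr1d1 was 12.5 to 38.8 times that of Thra in each library, with Thra at a median of 63.2 TPM (13.1 to 98.5). Both levels include reads of the overlap as the quantification assigned them. The ratio therefore cannot show how many of those reads belong to either gene. Of the 2 Nr1d1 isoforms, that of 2721 bases held 95.9% to 99.4% of the gene's TPM (median 97.0%). The Per1 level was spread over more of its 6 isoforms, and the isoform of 3507 bases held 17.2% to 76.2% of it (median 55.4%).

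Members differed strongly in how far libraries of 1 group lay apart. Libraries are compared from here on in CPM (reads scaled to a common library total) after TMM scaling, which makes them comparable for a given gene, and on the log2 scale for errors. The standard deviation within groups was smallest for Dbp (0.48 log2 CPM), Cry1 (0.55), Nr1d1 (0.56) and Per3 (0.68). It was 0.88 for Per1, 1.10 for Nr1d2, 1.20 for Per2 and 1.22 for Clock, and largest for Npas2 (1.65) and Arntl (1.85). The activators Arntl and Npas2 thus varied most between libraries, while the activator Clock lay beside the repressors Per2 and Nr1d2. Counts were low for Arntl (0 to 279 reads) and Npas2 (0 to 242), against 35 to 1512 for Clock, 75 to 332 for Dbp and 11989 to 49138 for Nr1d1. Cry1, with a standard deviation of 0.55, had 16 to 90 reads. The part of low counts in these spreads was not tested.

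Arntl encodes the activator without which the loop stops in mice. In the EDA-labelled 22-month libraries it had 13.9, 10.9 and 11.7 CPM, and in the control-labelled 22-month libraries 2.44, 24.4, 4.95, 4.67 and 0 CPM. In the EDA-labelled 12-month libraries it had 2.02, 4.04, 3.08, 2.21 and 1.54 CPM, and in the control-labelled 12-month libraries 2.55, 0.244, 7.02, 5.52 and 0.276 CPM. The 3 EDA-labelled 22-month libraries lay close together and above all libraries of the 12-month groups, while the control-labelled 22-month libraries ran from none detected to the highest level of all. The 0 allows up to 0.222 CPM, the level of 3 counts in that library, and like all such limits here it covers counting error only.

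The highest Arntl level, 24.4 CPM, came from control-labelled 22-month library 2, the library with 4452 TPM of photoreceptor markers. The same library held the highest Npas2 level, 21.1 CPM. The part of photoreceptor RNA in these values was not tested. With that library left out, the fitted Arntl difference between EDA-labelled and control-labelled libraries at 22 months was 2.01 in place of 0.74 (log2 fold change), and that between control-labelled libraries at 22 and at 12 months was -0.05 in place of 1.22.

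Per1, the repressor that also answers acute signals, had its lowest group mean in the EDA-labelled 22-month libraries (30.3 CPM). Its highest group mean was that of the EDA-labelled 12-month libraries (104.6 CPM). It had 37.9, 42.1 and 10.9 CPM in the EDA-labelled 22-month libraries and 29.4, 52.7, 42.9, 68.4 and 32.9 CPM in the control-labelled 22-month libraries. It had 83.1, 92.7, 101.8, 134.8 and 110.7 CPM in the EDA-labelled 12-month libraries and 162.7, 95.8, 16.6, 25.6 and 56.4 CPM in the control-labelled 12-month libraries. The EDA-labelled 12-month libraries were all above every library of both 22-month groups, whereas the control-labelled 12-month libraries held both the highest level of all and the second lowest. In both 12-month groups the libraries with Xist above the Y-linked genes had the highest Per1. These were EDA-labelled libraries 4 and 5 (134.8 and 110.7 CPM) and control-labelled libraries 1 and 2 (162.7 and 95.8 CPM). At 22 months the only such library, EDA-labelled library 1, had 37.9 CPM, between its group mates.

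Per2, whose protein sustains the rhythm in mice, had 3.33, 3.78 and 0.176 CPM in the EDA-labelled 22-month libraries and 14.2, 5.42, 7.14, 7.90 and 4.82 CPM in the control-labelled 22-month libraries. It had 8.998, 9.15, 11.9, 1.95 and 13.9 CPM in the EDA-labelled 12-month libraries and 33.3, 38.5, 5.03, 19.3 and 19.9 CPM in the control-labelled 12-month libraries. At 22 months the 3 EDA-labelled libraries lay below the 5 control-labelled libraries on this scale, and the groups of the other comparisons overlapped. On the TPM scale the 22-month groups overlapped too, at 0.0300 to 3.74 TPM in EDA-labelled libraries and 1.09 to 11.8 TPM in control-labelled libraries.

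Cry1, the cryptochrome repressor, had 2.36, 2.41 and 1.49 CPM in the EDA-labelled 22-month libraries and 2.91, 4.63, 5.64, 3.89 and 6.53 CPM in the control-labelled 22-month libraries. These groups did not overlap either, with the EDA-labelled libraries below. On the TPM scale they overlapped, at 0.500 to 2.07 TPM in EDA-labelled libraries and 1.83 to 6.20 TPM in control-labelled libraries. At 12 months Cry1 had 1.02 to 3.26 CPM in EDA-labelled libraries and 1.59 to 3.83 CPM in control-labelled libraries, which overlapped. All of these rest on 16 to 90 reads per library.

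Nr1d1 showed no such separation. It had 2871, 2732 and 2702 CPM in the EDA-labelled 22-month libraries and 1516, 3386, 1655, 2940 and 3456 CPM in the control-labelled 22-month libraries. It had 2636, 2900, 1873, 756 and 2795 CPM in the EDA-labelled 12-month libraries and 2138, 1842, 2024, 2025 and 3134 CPM in the control-labelled 12-month libraries. Every pair of groups overlapped, and the lowest level was that of EDA-labelled 12-month library 4.

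The same library 4 was lowest for Nr1d2, the second REV-ERB repressor, at 5.86 CPM, against 57.1 to 92.1 CPM in the other 4 EDA-labelled 12-month libraries. The next lowest Nr1d2 level was 11.1 CPM in EDA-labelled 22-month library 3, whose group mates had 48.4 and 59.4 CPM. The control-labelled libraries had 29.2 to 91.4 CPM at 22 months and 31.4 to 95.1 CPM at 12 months, and so overlapped with the EDA-labelled libraries at both ages. Of all libraries, EDA-labelled 12-month library 4 also had the highest sum of astrocyte markers, 18768 TPM, and EDA-labelled 22-month library 3 the lowest, 3112 TPM. The highest sum was almost all Gfap (17692 TPM) and Slc1a3 (1042 TPM), so it does not stand for Aqp4, S100b and Aldh1l1. The part of tissue makeup in the low levels of these libraries was not tested.

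The other members also overlapped between all groups compared. Clock, the partner of Arntl, had 3.08 to 56.0 CPM in EDA-labelled and 18.1 to 115.5 CPM in control-labelled libraries at 22 months. At 12 months it had 38.04 to 95.3 CPM in EDA-labelled and 8.96 to 87.1 CPM in control-labelled libraries. Its lowest level, like those of Per1, Per2 and Npas2, was that of EDA-labelled 22-month library 3, the library with the fewest detected genes. Npas2 was not detected there, which allows up to 0.264 CPM, and ran to 10.9 CPM in EDA-labelled 22-month library 1.

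Per3, the Per gene that is dispensable for the rhythm in mice, had 14.4 to 49.8 CPM in EDA-labelled and 20.0 to 46.1 CPM in control-labelled libraries at 22 months. At 12 months it had 18.8 to 44.4 CPM in EDA-labelled and 14.2 to 52.3 CPM in control-labelled libraries. Dbp had 8.52 to 17.8 CPM in EDA-labelled and 5.90 to 16.1 CPM in control-labelled libraries at 22 months, and 8.87 to 13.2 CPM in EDA-labelled and 8.01 to 22.0 CPM in control-labelled libraries at 12 months. Dbp is among the most strongly rhythmic genes known in mouse tissues, and here it had the narrowest spread of the 10.

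**Figure D2:**
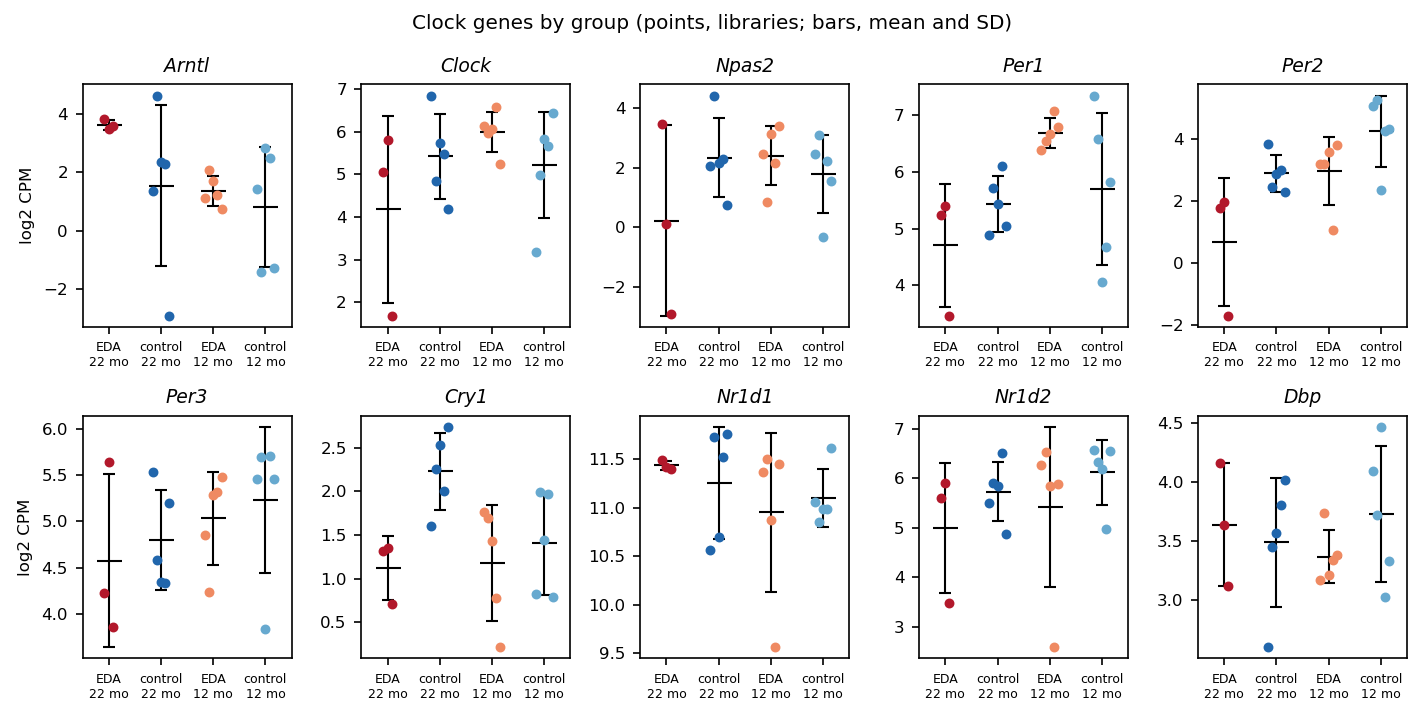
Log2 CPM of each clock gene by group, with a point for each library and bars for the mean and standard deviation (n = 3, 5, 5 and 5). Arntl in the 3 EDA-labelled 22-month libraries lies above the EDA-labelled 12-month libraries and Per1 lies below them, while Nr1d1 and Dbp overlap between all groups.

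Genotype at 22 months was compared between 3 EDA-labelled and 5 control-labelled libraries by edgeR's quasi-likelihood test over 15118 genes with Benjamini-Hochberg adjustment. None of the 10 members passed (adjusted p = 1 for each), nor did any other gene (0%), and 0 members had an unadjusted p under 0.05, against 3.96% of all genes. By DESeq2, 35 genes passed, or 0.248%, and no member was among them. The groups did not overlap for 2 of the 10 members, Per2 and Cry1, both lower in EDA-labelled libraries, where 2.75% of all genes did not overlap and 1.43% did so in that direction.

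In the 22-month comparison Per2 had a log2 fold change of -1.69 ± 0.82 (standard error), and this had the lowest p of the members (unadjusted p = 0.0532, edgeR's quasi-likelihood test). With the log2 CPM of ENSMUSG00000119584 as a covariate it was -0.72, and without EDA-labelled 22-month library 3 it was -1.15. Cry1 had a log2 fold change of -1.17 ± 0.82. The 3 activator genes were at 0.74 ± 1.18 for Arntl, -0.76 ± 0.72 for Clock and -0.85 ± 1.20 for Npas2. The Clock value was -1.53 without EDA-labelled 22-month library 2, -0.23 without library 3 and -0.24 without control-labelled 22-month library 1. The Npas2 value was -3.84 without EDA-labelled 22-month library 1, the library with 270 TPM of muscle markers, and 0.11 without control-labelled 22-month library 2, with -0.39 and -0.27 without EDA-labelled 22-month libraries 2 and 3.

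The targets of the loop thus ranged from Per2 and Cry1, lowest in EDA-labelled libraries, through Per1 at -0.58 ± 0.58 and Nr1d2 at -0.52 ± 0.63, to values near 0 for Nr1d1 (0.10 ± 0.38), Dbp (0.14 ± 0.49) and Per3 (-0.09 ± 0.48). Without EDA-labelled 22-month library 3 the Per1 value was -0.18 and the Nr1d2 value -0.07. In all, 7 of the 10 members were below 0, and the members' median was -0.55, beside -0.07 over all genes tested.

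Genotype at 12 months was compared between 5 EDA-labelled and 5 control-labelled libraries. By edgeR's quasi-likelihood test with Benjamini-Hochberg adjustment no member and no other gene passed (0%), the lowest adjusted p over all genes being 0.0936, and 0 members had an unadjusted p under 0.05, against 4.56% of all genes. DESeq2 called 22 genes, 0.147% of those tested, and no member. The groups overlapped for all 10 members, and did not overlap for 1.26% of all genes. Per2 again had the lowest p among the members, with a log2 fold change of -1.34 ± 0.67 (unadjusted p = 0.0599, edgeR's quasi-likelihood test), which was -0.47 with the ENSMUSG00000119584 covariate.

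For this and every other member the interval of 2 standard errors each way at 12 months held 0. Per1 was at 0.55 ± 0.49, Clock at 0.50 ± 0.61, Npas2 at 0.49 ± 1.01 and Arntl at -0.28 ± 1.04 on the log2 scale. Nr1d1 was at -0.03 ± 0.33, Nr1d2 at -0.35 ± 0.53, Dbp at -0.44 ± 0.42, Per3 at -0.27 ± 0.42 and Cry1 at -0.22 ± 0.68. Without control-labelled 12-month library 1, which has the highest Per1, the Per1 value was 1.11. The members' median was -0.25, beside -0.01 over all genes, and 7 of 10 were below 0.

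Age within the EDA-labelled libraries, 3 at 22 months against 5 at 12 months, set Arntl and Per1 apart. By edgeR's quasi-likelihood test with Benjamini-Hochberg adjustment no member and no other gene passed (0%), and the lowest adjusted p was 0.961. The unadjusted p was under 0.05 for 2 of the 10 members, Per1 and Per2, both lower at 22 months, where 4.98% of all genes had such a p and 2.38% had it in that direction. DESeq2 called 43 genes, 0.304% of those tested, and no member.

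The groups did not overlap for Arntl, higher at 22 months, nor for Per1, lower at 22 months, where 4% of all genes did not overlap, 1.76% of them higher and 2.24% lower. Per1 had a log2 fold change of -1.79 ± 0.61 (unadjusted p = 0.00803, edgeR's quasi-likelihood test), which placed it at number 87 of 15118 by p. Its value was -1.29 without EDA-labelled 22-month library 3 and 12-month library 4 together and -1.74 with the Xist class as a covariate. Arntl had 2.24 ± 1.18 (unadjusted p = 0.0714), and from 2.10 to 2.46 when each library was left out in turn. Per2 had -1.91 ± 0.83.

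Of the other genes that usually move against Arntl in a rhythm, Per2 had the lower values at 22 months given above, and the rest lay within 1 standard error of 0. Nr1d1 had a log2 fold change of 0.34 ± 0.38, Dbp of 0.32 ± 0.48, Nr1d2 of -0.56 ± 0.63 and Per3 of -0.31 ± 0.49. Cry1 was at -0.14 ± 0.79. Of the remaining activators Clock was at -1.12 ± 0.74, with -0.58 without EDA-labelled 22-month library 3 and -1.88 without library 2. Npas2 was at -0.62 ± 1.18, with -3.61 without EDA-labelled 22-month library 1, -0.16 without library 2 and -0.04 without library 3. The members' median was -0.43, beside -0.06 over all genes. Photoreceptor markers also separated these groups, at 42.8 to 161 TPM in the EDA-labelled 22-month libraries and 5.56 to 41.3 TPM in the EDA-labelled 12-month libraries, and their part in the Arntl and Per1 differences was not tested.

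Age within the control-labelled libraries, 5 at 22 months against 5 at 12 months, gave no separation. By edgeR's quasi-likelihood test with Benjamini-Hochberg adjustment no gene passed (0%), members included, and the groups overlapped for all 10 members, where 0.556% of all genes did not overlap. DESeq2 called 23 genes, 0.154% of those tested, and no member. Per2 was the only member with an unadjusted p under 0.05 (0.0320 by edgeR's quasi-likelihood test), with a log2 fold change of -1.56 ± 0.68. Of all genes, 3.51% had such a p and 1.37% had it in that direction.

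Arntl in this comparison was at 1.22 ± 1.05, Cry1 at 0.81 ± 0.69, Npas2 at 0.72 ± 1.01 and Per1 at -0.66 ± 0.49 on the log2 scale. Per1 was at 0.03 with the Xist class as a covariate and at -0.10 without control-labelled 12-month library 1. Nr1d1, Nr1d2, Per3, Dbp and Clock lay between -0.49 and 0.22. The members' median was -0.06, beside 0.02 over all genes. The comparisons of age and of genotype share libraries, so the lower Per2 values in the 4 comparisons are not separate observations.

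**Figure D3:**
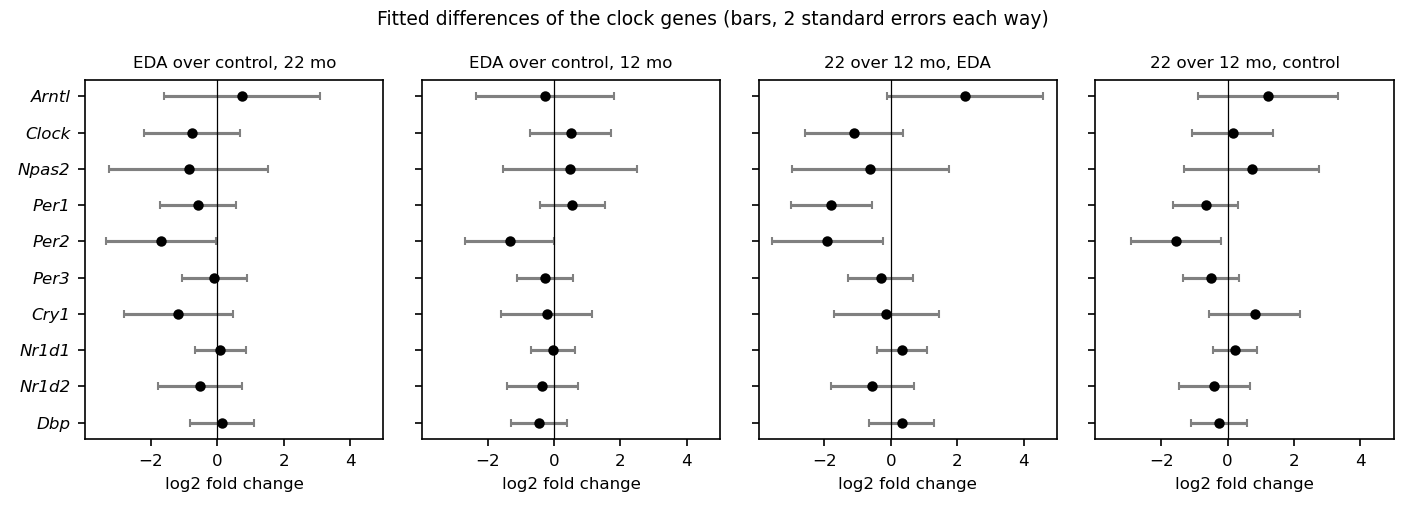
Fitted log2 fold change of each clock gene in the 4 comparisons, with bars of 2 standard errors each way and a line at 0. The bars of Per1 and Per2 lie below 0 for age in EDA-labelled libraries, and that of Per2 does so for age in control-labelled libraries and for genotype at 22 months, and no member passed after adjustment over all 15118 genes.

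The difference between the genotype effects at 22 and at 12 months was tested as an interaction. No gene passed by edgeR's quasi-likelihood test with Benjamini-Hochberg adjustment (0%), and 0 of the 10 members had an unadjusted p under 0.05, against 4.02% of all genes. DESeq2 called 37 genes, 0.252% of those tested, and no member. Among the members Per1 had the lowest p, with a log2 difference of -1.13 ± 0.76 (unadjusted p = 0.151).

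Whether genes of opposed phase pulled apart within single libraries was examined next, since a library taken at another hour of a running rhythm would have Arntl up and its repressors down, or the reverse. On the scale of log2(TPM + 1), Arntl less Per1 was -1.60 to 0.42 in the EDA-labelled 22-month libraries, -4.60 to -1.87 in the control-labelled 22-month libraries, -5.12 to -4.03 in the EDA-labelled 12-month libraries and -5.89 to -0.77 in the control-labelled 12-month libraries. The EDA-labelled 22-month libraries were thus above the control-labelled 22-month and the EDA-labelled 12-month libraries, and overlapped with the control-labelled 12-month libraries. Arntl and Per1 each already separated the EDA-labelled ages, in opposite directions. Their difference therefore had to separate those groups too and is no further observation.

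Arntl less Nr1d1 did not set these libraries apart to the same extent. It was -7.77 to -7.59 in the EDA-labelled 22-month libraries, -10.8 to -7.12 in the control-labelled 22-month libraries, -9.89 to -7.60 in the EDA-labelled 12-month libraries and -10.6 to -7.74 in the control-labelled 12-month libraries. Arntl less Dbp was -1.19 to -0.59 in the EDA-labelled 22-month libraries, -4.20 to 0.43 in the control-labelled 22-month libraries, -2.74 to -1.82 in the EDA-labelled 12-month libraries and -3.59 to -1.30 in the control-labelled 12-month libraries. With Nr1d1 the EDA-labelled 22-month libraries overlapped with each of the other groups, and with Dbp they overlapped with the control-labelled 22-month libraries and lay above both 12-month groups.

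**Figure D4:**
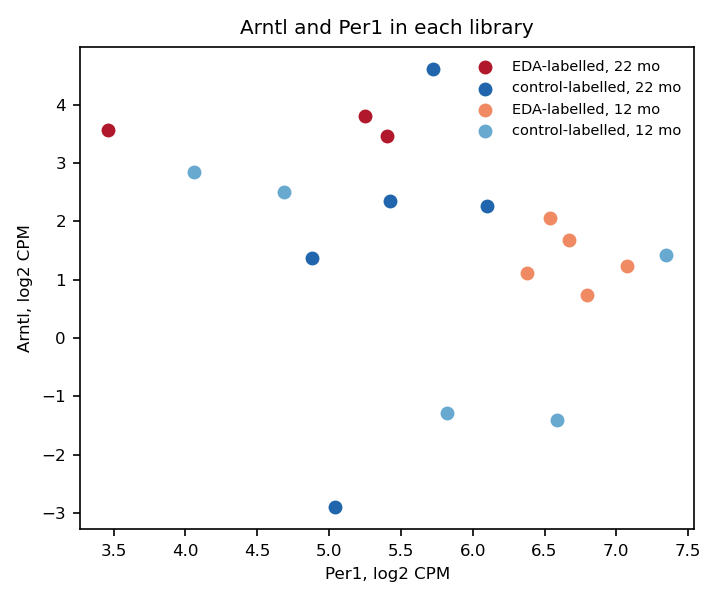
Arntl against Per1 in log2 CPM, with a point for each of the 18 libraries coloured by group. The 3 EDA-labelled 22-month libraries lie high on the Arntl axis, at Per1 values of 3.46 to 5.40. The 5 EDA-labelled 12-month libraries lie to the lower right of them, while the control-labelled libraries of both ages are spread across the plot.

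Across all 18 libraries, with group means removed, the correlations of opposed pairs had both signs. The 3 activators were set against the 6 genes Nr1d1, Nr1d2, Per1, Per2, Per3 and Dbp in 18 pairs, of which 8 had a correlation below 0 and 10 above 0, with a median Pearson r of 0.03. The opposed phase described above is that of Arntl RNA. Clock and Npas2 were grouped with Arntl by their role as activators, not by a known phase of their RNA. By label the counts differed. In the 8 EDA-labelled libraries 3 of the 18 opposed pairs were below 0 (median r 0.34), with 2 of 6 for Arntl, 1 of 6 for Clock and 0 of 6 for Npas2. In the 10 control-labelled libraries 12 of the 18 were below 0 (median r -0.07), with 5 of 6 for Arntl, 6 of 6 for Clock and 1 of 6 for Npas2. The difference between the labels was not tested. The other 27 pairs of members had 8 below 0 and 19 above 0, with a median of 0.16. In all, 46 pairs were tested with Thra included (100000 permutations each, two-sided, Benjamini-Hochberg adjustment over the 46), and no pair of members passed on this scale. On log2(TPM + 1), Nr1d1 with Nr1d2 (r = 0.75, adjusted p = 0.0274) and Clock with Cry1 (r = 0.66, adjusted p = 0.0483) passed by the same permutation test. The points of each pair share their library, its depth and its tissue makeup.

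Arntl had r = -0.14 with Per1 (rho = -0.13, permutation p = 0.588 and 0.601), -0.12 with Nr1d1 (rho = -0.19, permutation p = 0.623 and 0.456) and -0.02 with Dbp (rho = 0.15, permutation p = 0.935 and 0.545). The most negative opposed pair was Arntl with Per3 (r = -0.43, rho = -0.52, permutation p = 0.0739 and 0.0300, adjusted p = 0.378 and 0.203), and r was -0.47 without the 2 libraries farthest from the median of Arntl. Left at the same step, the Arntl and Per1 pair had r = -0.41, Arntl and Nr1d1 r = -0.10 and Arntl and Dbp r = 0.31.

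The strongest opposed pairs were positive. Npas2 had an r of 0.65 with Per2 (rho = 0.56, permutation p = 0.00340 and 0.0187, adjusted p = 0.0521 and 0.203) and 0.61 with Per1 (rho = 0.60, permutation p = 0.00742 and 0.0102, adjusted p = 0.0833 and 0.203). Without EDA-labelled 22-month libraries 1 and 3 these were 0.45 and 0.54.

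Among genes of like phase, Per2 and Nr1d2 had r = 0.69 (rho = 0.66, permutation p = 0.00295 and 0.00382, adjusted p = 0.0521 and 0.176). It was 0.35 without EDA-labelled 22-month library 3 and EDA-labelled 12-month library 4, the libraries farthest from the median of Per2. Leaving them out also narrows the range of Per2. Nr1d1 and Nr1d2, the REV-ERB pair, had r = 0.63 (rho = 0.56, permutation p = 0.00943 and 0.0173, adjusted p = 0.0833 and 0.203), and 0.24 without EDA-labelled 12-month library 4 and control-labelled 22-month library 1. Per1 and Per2 had r = 0.59 (rho = 0.51, permutation p = 0.0109 and 0.0309, adjusted p = 0.0833 and 0.203), and 0.46 without control-labelled 12-month libraries 1 and 3.

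By Pearson r on log2 CPM a single pair of the 46 passed, and its reads overlap. Nr1d1 and Thra had r = 0.81 (permutation p = 1.3e-04, adjusted p = 0.00598), with rho = 0.53 (permutation p = 0.0262, adjusted p = 0.203), and r was 0.59 without EDA-labelled 12-month library 4 and control-labelled 22-month library 1. Since strand is not kept, counts of the shared stretch could enter either gene, and their part in this correlation was not tested.

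**Figure D5:**
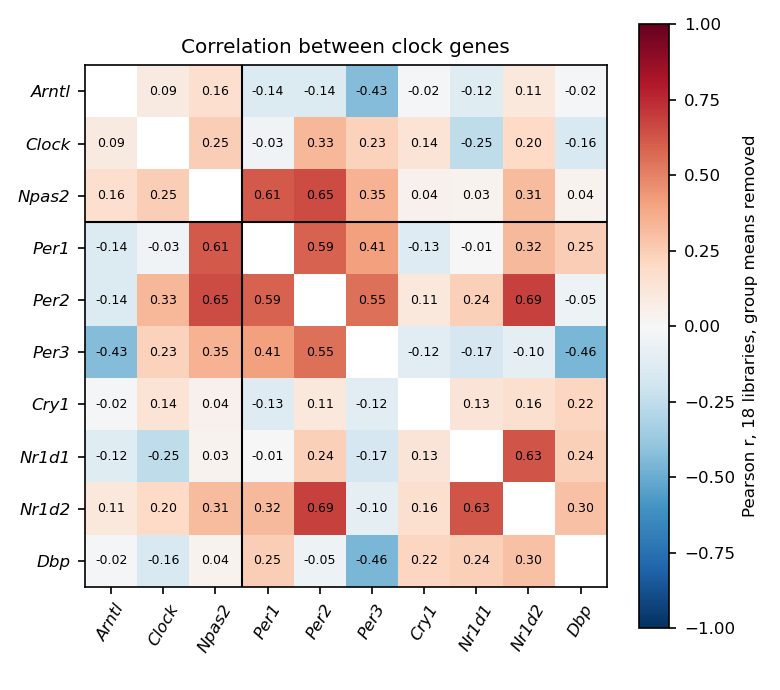
Pearson r between each pair of clock genes over the 18 libraries in log2 CPM less the group mean, from blue (negative) to red (positive), with black lines between the 3 activators and the other genes. The block of activators against the other members holds values of both signs, from -0.43 for Arntl with Per3 to 0.65 for Npas2 with Per2.

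Beyond the 10 members, 20 further genes of the clock were listed (paralogs, D-box and ROR factors, kinases and ubiquitin ligases that set the stability of PER and CRY, and outputs), of which 19 could be tested. By edgeR's quasi-likelihood test and by DESeq2, 0 passed in any of the 5 comparisons. With an unadjusted p under 0.05 there were 0 in genotype at 22 months, 1 in genotype at 12 months, 1 in age of EDA-labelled libraries, 2 in age of control-labelled libraries and 1 in the interaction, where 3.96%, 4.56%, 4.98%, 3.51% and 4.02% of all genes had such a p. The median log2 fold changes were -0.32, -0.16, -0.18, 0.02 and -0.22 in that order, beside -0.07, -0.01, -0.06, 0.02 and -0.07 over all genes.

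Rorb, a nuclear receptor that activates Arntl through the sequence the REV-ERB proteins bind, had the lowest p in 4 of the comparisons. It had 26.03 to 65.0 CPM in EDA-labelled and 15.8 to 26.3 CPM in control-labelled libraries at 12 months (log2 fold change 1.09 ± 0.40, unadjusted p = 0.0136), and 20.2 to 35.3 CPM in EDA-labelled and 19.0 to 91.8 CPM in control-labelled libraries at 22 months (-0.71 ± 0.47). Between the ages of control-labelled libraries it differed by 1.17 ± 0.41, and its interaction was -1.80 ± 0.63. Tef, a D-box factor related to Dbp, had 33.9 to 83.8 CPM in EDA-labelled 22-month and 75.5 to 125 CPM in EDA-labelled 12-month libraries (log2 fold change -0.83 ± 0.38). None of these passed after adjustment.

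Several of the listed genes were abundant beside the members. Named after their levels were seen, Bhlhe40, a repressor that competes for E-boxes, had a median of 755 TPM (395 to 1161), its paralog Bhlhe41 156 TPM (80.7 to 343), the clock-driven deubiquitinase Usp2 232 TPM (101 to 429) and the PER kinase gene Csnk1d 197 TPM (40.3 to 265). Like Nr1d1, Bhlhe40 stood far above Arntl and Npas2 in TPM. The second cryptochrome Cry2 had 23.4 TPM (11.5 to 36.2), with its lowest library above the highest Cry1 level of 6.20 TPM.

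Because Per1 also answers corticosteroids and acute stimulation, 2 further lists were set beside it. The part of either in the Per1 values was not tested. Of 10 corticosteroid-responsive genes, all tested, 0 passed in any comparison by edgeR's quasi-likelihood test or by DESeq2, and 2 had an unadjusted p under 0.05, both in genotype at 12 months, where 4.56% of all genes did. In that comparison 9 of 10 were above 0 with a median log2 fold change of 0.67, beside -0.01 over all genes, and Per1 was at 0.55. Astrocyte markers summed to 6559 to 18768 TPM in the EDA-labelled and 3438 to 7079 TPM in the control-labelled libraries of that age, and their part in these values was not tested. The highest of these sums was mostly Gfap, at 17692 TPM. For age in EDA-labelled libraries 8 of 10 were below 0 with a median of -0.55, and Per1 was at -1.79. In genotype at 22 months 6 of 10 and in age of control-labelled libraries 3 of 10 were below 0, with medians of -0.25 and 0.04, and in the interaction all 10 were below 0 with a median of -0.56. The comparisons share libraries, so these counts are not separate observations.

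Mt1, a metallothionein gene that corticosteroids and metals induce, had the lowest p of that list in 3 comparisons. It had 94.4 to 320 CPM in EDA-labelled and 29.01 to 117 CPM in control-labelled libraries at 12 months (log2 fold change 1.15 ± 0.45), 106 to 271 CPM in EDA-labelled and 42.2 to 197 CPM in control-labelled libraries at 22 months (0.77 ± 0.50), and the ages of control-labelled libraries differed by 0.51 ± 0.45. Zbtb16, a zinc finger gene that corticosteroids induce, had 0 to 5.84 CPM in EDA-labelled 22-month and 3.34 to 67.5 CPM in EDA-labelled 12-month libraries (-2.73 ± 1.52). Mt2 had the lowest p in the interaction, at -0.73 ± 0.58.

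Of 10 immediate early genes, which cells switch on within minutes of a stimulus, 8 were tested and 0 passed in any comparison by edgeR's quasi-likelihood test or by DESeq2, with 1 or 2 at an unadjusted p under 0.05 in each, where 3.51% to 4.98% of all genes had such a p. In genotype at 12 months 6 of 8 were above 0 with a median of 0.73, and Fos had 10.1 to 46.3 CPM in EDA-labelled and 2.33 to 7.05 CPM in control-labelled libraries (log2 fold change 2.08 ± 0.67, unadjusted p = 0.00533). For age in EDA-labelled libraries 6 of 8 were below 0 with a median of -0.79, although Egr1 had 37.6 to 551 CPM at 22 months and 22.0 to 178 CPM at 12 months (1.75 ± 0.72). In genotype at 22 months 5 of 8 were below 0 with a median of -0.95, and Egr1 was at 1.59 ± 0.72. In age of control-labelled libraries 5 of 8 were above 0 with a median of 1.05, and Arc was listed at 0 to 5.45 CPM at 22 months and at 0 in all 5 libraries at 12 months. In the interaction 5 of 8 were below 0 with a median of -1.78, and Arc had the lowest p.

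The genes whose pattern over the 18 libraries was most like the mean of Nr1d1, Nr1d2, Per1, Per2, Per3 and Dbp were found among 4377 genes of at least 4 log2 CPM on average. They were Wdr11 (r = 0.90), Baz1b (0.88), Ubp1 (0.87), Arf4 (0.86) and Cdh2 (0.86), each over 18 libraries with group means removed and picked for this likeness, so that no p is given. Without EDA-labelled 22-month library 3 and EDA-labelled 12-month library 4, the libraries with the lowest Nr1d2, the same values were 0.83, 0.74, 0.69, 0.73 and 0.74. None of the 5 is a gene of the clock lists.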

How the data were processed

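RNA of 18 laser-captured optic nerve head libraries was made into cDNA with SMART-Seq v4 and Nextera XT, which keep no strand information, and the authors aligned reads with STAR and quantified them with RSEM, per the labels' protocols. The build was GRCm39, per the submitters' processing notes, with the versions and the annotation not given in the sources used here. Per gene, the authors deposited expected counts, 3.59% of which were not whole and all of which were rounded here. The authors' TPM values were also used, and deposited isoform TPM values were used for isoform shares and the EDA exon. Symbols for 52083 of 55416 identifiers came from GENCODE M21 of GRCm38, used for names and exon structure only. Promoter sequences are RefSeq's.

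Groups come from the labels. Genes were kept with filterByExpr (15118), scaled by TMM and fitted in edgeR 4.0.16 (R 4.3.3) with 4 group means and robust quasi-likelihood tests, two-sided, with Benjamini-Hochberg adjustment over all genes and a threshold of 0.05. The script was tested on simulated data. Log2 CPM used a prior count of 2, and limits for 0 are 3 counts. DESeq2 1.42.0, limma 3.58.1 (voom with quality weights, and log2(TPM + 1) with a pseudocount of 1), other scaling and filters, covariates and leaving out libraries were alternatives. The genes named are the 10 members, Thra, the gene of smallest unadjusted p of each list in each comparison, and the 5 most alike in pattern. The members and lists were chosen with earlier results of these data known.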

Additional observations from a re-analysis of the deposited data

Results flagged for a closer look

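In groups of 4 to 10 libraries, a library was picked out if its distance from the nearest other, divided by the range of the group, exceeds Dixon's 95% critical value. Of the 30 groups of 5 libraries examined, chance alone would give about 1 in 20. EDA-labelled 12-month library 4 was low for Per2, at 1.95 CPM against 8.998 to 13.9 CPM in the other 4 libraries, and low for Nr1d2, at 5.86 CPM against 57.1 to 92.1 CPM. Control-labelled 12-month library 3 was low for Per3, at 14.2 CPM against 43.8 to 52.3 CPM. Control-labelled 12-month library 4 was low for Nr1d2, at 31.4 CPM against 72.7 to 95.1 CPM. Control-labelled 12-month library 5 was high for Nr1d1, at 3134 CPM against 1842 to 2138 CPM.

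The Per1 difference between EDA-labelled and control-labelled libraries was -0.73 in mean log2 CPM at 22 months and 0.99 at 12 months, a difference of -1.72 between the ages. Its test as an interaction by edgeR's quasi-likelihood test gave -1.13 ± 0.76 with an adjusted p of 1.000 after Benjamini-Hochberg adjustment, which does not pass.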

How the results depend on the processing

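Each of the 40 values of a member in a comparison was recomputed under the alternatives, and none of the 1108 recomputed values passed the threshold. In 39 of them the sign changed, and 25 of the 40 kept it throughout. The cause of the changes was not tested.

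At 22 months (EDA-labelled over control-labelled), the covariate ENSMUSG00000119584 gave 0.10 for Npas2, 0.071 for Per3, 0.44 for Nr1d2 and -0.057 for Dbp, voom with quality weights gave 0.11 for Per3, and leaving out EDA-labelled 12-month library 4 and 22-month library 3 together, chosen after seeing the data, gave 0.21 for Per3. At 12 months, voom gave 1.07 for Arntl, 0.20 for Nr1d1 and 0.11 for Nr1d2, log2(TPM + 1) gave 0.19 for Arntl, 0.00225 for Cry1 and 0.072 for Nr1d1, the covariate gave 0.21 for Nr1d1 and 0.30 for Nr1d2, and leaving out both libraries gave 0.20 for Nr1d1. For age in control-labelled libraries, log2(TPM + 1) gave -0.054 for Clock and the Xist class gave 0.035 for Per1. For age in EDA-labelled libraries, leaving out both libraries gave 0.053 for Per3.

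Leaving out each library in turn changed a sign within these ranges. Genotype at 22 months ran from -0.16 to 0.37 for Dbp, -3.84 to 0.11 for Npas2, -0.047 to 0.22 for Nr1d1 and -0.83 to 0.22 for Per3. Genotype at 12 months ran from -0.58 to 0.30 for Arntl and -0.15 to 0.19 for Nr1d1. Age in control-labelled libraries ran from -0.051 to 1.74 for Arntl, -0.37 to 0.50 for Clock and -0.24 to 1.10 for Npas2. Age in EDA-labelled libraries ran from -0.33 to 0.052 for Cry1 and -1.05 to 0.0022 for Per3.

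Over all genes, DESeq2 called 35 genes for genotype at 22 months, 22 at 12 months, 23 for age in control-labelled libraries, 43 for age in EDA-labelled libraries and 37 for the interaction, where edgeR called 0. Voom with quality weights called 1 gene at 22 months, 2 at 12 months and 1 for the interaction. At 12 months edgeR called 1 gene when a mean of 2 log2 CPM or more was required, 1 without both libraries, and 0 to 1 when each library was left out, the 1 without EDA-labelled 12-month library 4. On log2(TPM + 1), 3 pairs of genes passed in place of 1, the 2 more being the pairs of members Nr1d1 with Nr1d2 and Clock with Cry1. Of the 18 opposed pairs, 3 were below 0 within EDA-labelled and 12 within control-labelled libraries, in place of 8. No paired analysis was possible because the labels give no replicate numbers. Depth limits Arntl, Npas2, Cry1 and Per2, whose lowest libraries held 0, 0, 16 and 2 reads.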
